A study of Mus musculus with 10 samples.

Results

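Renal Wnt and R-spondin signalling was followed through 10 genes of whole embryonic mouse kidneys. They were found by their symbols among the 35663 gene entries of the deposited expression table, and each symbol occurred once. The genes were the Wnt ligands *Wnt9b*, *Wnt7b*, *Wnt6*, *Wnt4*, *Wnt5a* and *Wnt2b*, the R-spondins *Rspo1* and *Rspo3*, the nuclear effector *Lef1* and the target *Axin2*. RNA-seq of kidneys at E13.5, all labelled as strain C57/b6, compared 3 genotypes in 10 libraries. Wild-type kidneys (n=4) carried no Cre. Control kidneys (n=3) carried Foxd1GC, a knock-in that makes Cre in stromal progenitors and replaces one *Foxd1* allele. Ntn1SPKO kidneys (n=3) carried Foxd1GC together with floxed *Ntn1* (labelled Foxd1-Cre; Ntn1/cc), which removes this secreted guidance cue from Cre-expressing stroma and its descendants. The control and Ntn1SPKO groups therefore shared both Cre and the altered *Foxd1* allele, and wild-type kidneys lacked them. The libraries hold every cell type of the organ, and in such bulk samples fewer cells of a type and less RNA per cell cannot be told apart.

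Wnt proteins are secreted lipid-modified ligands that bind Frizzled receptors. In the canonical pathway they stabilise beta-catenin, which enters the nucleus and acts with TCF/LEF factors, and R-spondins raise the response by binding LGR receptors and removing the ligases ZNRF3 and RNF43 from receptor turnover. In the developing kidney, Wnt9b from the ureteric epithelium acts on nephron progenitors, and Wnt4 made by the committing cells drives their change into epithelium.

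Before the genes themselves, the libraries were checked. *Ntn1* lay between 10.7 and 16.3 FPKM (fragments per kilobase of transcript and per 1000000 fragments) in Ntn1SPKO, between 24.2 and 51.4 FPKM in Foxd1GC control and between 27.1 and 46.3 FPKM in wild-type libraries. The log2 difference of Ntn1SPKO from Foxd1GC control was −1.48 ± 0.29 (limma SE, adjusted p=0.447), without overlap. *Foxd1* lay between 14.2 and 15.4, 14.6 and 25.6, and 21.3 and 30.7 FPKM in the same order. The nephron progenitor marker *Six2* was at 63.1 to 96.4 FPKM in all 10 libraries. Rough depth per library, in units of 1000000 fragments, was 25.8 to 32.3. Y-linked transcripts were present in all 3 Ntn1SPKO libraries, in Foxd1GC control replicate 2 and in wild-type replicate 3. Of the 10 libraries, 2 stood apart: Foxd1GC control replicate 3 held the highest or lowest level for 44.8% of 14534 genes and wild-type replicate 3 for 39.9%.

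Levels of the 10 genes differed widely from each other. Averaged over the 10 libraries, *Rspo1* was highest at 32.4 FPKM. *Axin2* (17.4 FPKM), *Rspo3* (16.4 FPKM), *Wnt5a* (14.4 FPKM), *Wnt4* (14.2 FPKM) and *Lef1* (13.4 FPKM) followed. *Wnt9b* (4.31 FPKM), *Wnt7b* (2.91 FPKM), *Wnt6* (2.90 FPKM) and *Wnt2b* (0.509 FPKM) were lowest. FPKM is already divided by length, so these levels can be set beside each other. *Rspo1* exceeded *Axin2*, *Lef1* exceeded *Wnt9b* and *Wnt6* exceeded *Wnt2b* in 10 of 10 libraries, and *Wnt9b* exceeded *Wnt7b* in 9. The other neighbours changed places from library to library: *Axin2* was above *Rspo3* in 8 libraries, *Rspo3* above *Wnt5a* in 7, *Wnt4* above *Lef1* in 6, *Wnt7b* above *Wnt6* in 4 and *Wnt5a* above *Wnt4* in 2. From the rough depth, *Wnt2b* rested on about 10 to 29 fragments per library and *Rspo1* on about 637 to 857.

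**Figure D1:**
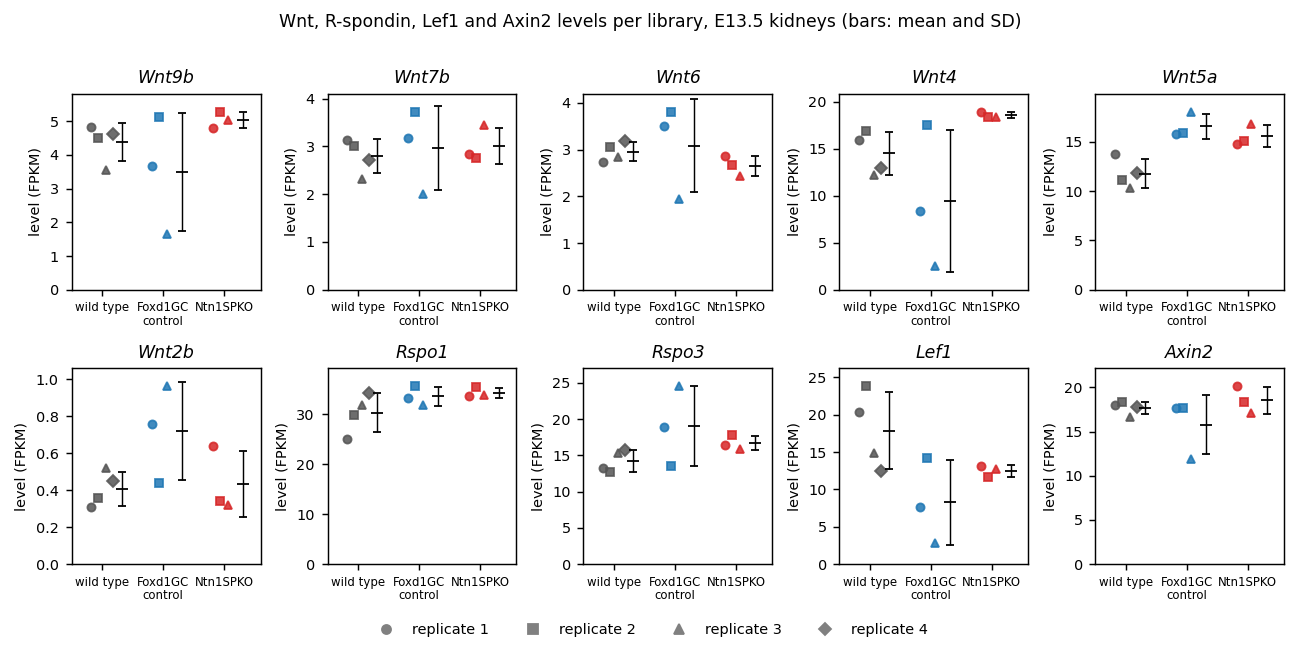
Level of each of the 10 genes (FPKM, axes from 0) in every library by genotype, with marker shape giving the replicate and bars the mean and SD. *Wnt4* sits between 18.3 and 18.9 FPKM in the 3 Ntn1SPKO libraries and between 2.50 and 17.5 FPKM in the 3 Foxd1GC control libraries.

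Variation across the 10 libraries was greatest for 3 genes, and 1 library held their lowest value. The SD of log2(FPKM + 0.1) was 0.88 for *Wnt4*, 0.83 for *Lef1* and 0.49 for *Wnt9b*, with highest over lowest levels of 7.58-fold, 8.27-fold and 3.21-fold. *Wnt2b* followed closely, at 0.47 and 3.12-fold. Foxd1GC control replicate 3 was lowest of the 10 libraries for *Wnt6*, *Wnt7b*, *Wnt9b*, *Wnt4*, *Lef1* and *Axin2*, and highest for *Wnt2b*, *Wnt5a* and *Rspo3*. It was thus extreme for 9 of the 10 genes, beside 44.8% of all genes.

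The same library was lowest of the 10 for 8 of 10 ureteric epithelium markers and for 6 of 9 committing nephron markers, beside 24.1% of all genes. *Etv4* and *Krt19* of the ureteric list were not, nor were *Fgf8* and *Cdh6* of the nephron list, and *Bmper* of that list was highest there at 29.8 FPKM. The ureteric markers *Ret* (4.09 FPKM against 14.1 to 20.9 elsewhere), *Gata3* (9.10 against 29.5 to 45.4) and *Calb1* (16.4 against 57.4 to 74.9) were lowest there. *Pax8* (5.95 against 18.4 to 31.8) and *Lhx1* (2.44 against 9.01 to 27.5), transcription factors of the committing nephron, were lowest there as well. *Myog*, a skeletal muscle factor, was at 30.0 FPKM in it and at 0.379 to 5.62 elsewhere. This library was highest for all 10 skeletal muscle markers and lowest for all 8 markers of the G2/M phase. It was highest for 5 of 8 nephron progenitor markers and lowest for 1. Of 10 renal stroma markers it was highest for 4 and lowest for 2. Over all genes it was highest for 20.7%. The summed level of the 10 skeletal muscle markers ran from 22.2 to 265 FPKM in Foxd1GC control, 31.1 to 67.8 in wild-type and 9.46 to 22.1 in Ntn1SPKO libraries. The part of these markers in the differences below was not tested.

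**Figure D2:**
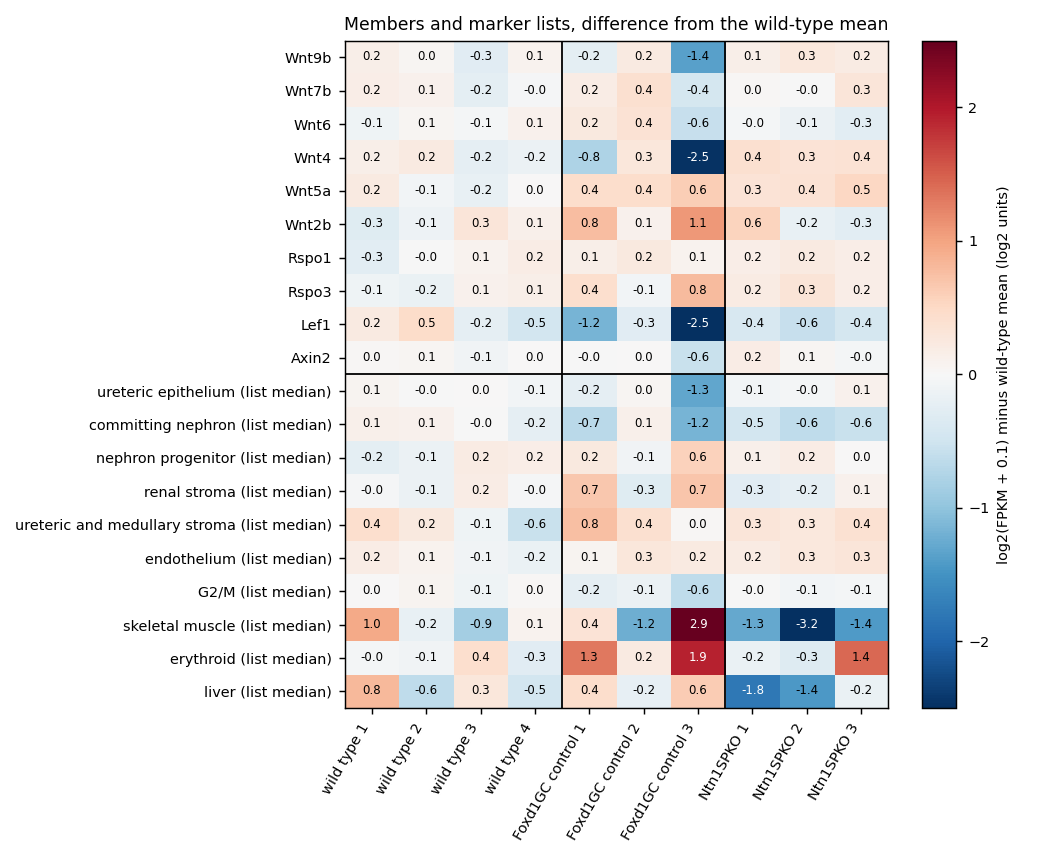
Each of the 10 genes and the median of each marker list per library, as log2(FPKM + 0.1) minus the wild-type mean (red higher, blue lower; columns are libraries by genotype). Foxd1GC control replicate 3 is the column with the lowest *Wnt4*, *Lef1*, ureteric epithelium and committing nephron values and the highest skeletal muscle value.

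Because *Wnt4*, *Lef1* and *Wnt9b* shared this variation while *Axin2*, the general readout of canonical signalling, varied less, their upstream sequences are shown. They are the bases just before the RefSeq start (GRCm38.p6), read 5′ to 3′. For *Lef1* the first of 4 starts was used, and for *Wnt4* the sequence stops where GENCODE M21 starts the transcript. Capitals mark CTTTG or its reverse complement CAAAG, the core letters of TCF/LEF sites.
*Wnt4* (chr4:137277385-137277488, plus strand): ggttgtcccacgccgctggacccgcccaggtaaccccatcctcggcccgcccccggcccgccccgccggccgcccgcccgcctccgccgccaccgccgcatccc
*Wnt9b* (chr11:103749822-103750071, minus strand): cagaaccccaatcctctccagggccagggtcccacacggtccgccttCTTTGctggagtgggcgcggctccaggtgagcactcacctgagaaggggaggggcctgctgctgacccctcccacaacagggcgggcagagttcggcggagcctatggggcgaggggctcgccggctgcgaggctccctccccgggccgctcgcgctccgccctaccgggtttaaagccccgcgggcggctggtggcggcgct
*Lef1* (chr3:131110047-131110296, plus strand): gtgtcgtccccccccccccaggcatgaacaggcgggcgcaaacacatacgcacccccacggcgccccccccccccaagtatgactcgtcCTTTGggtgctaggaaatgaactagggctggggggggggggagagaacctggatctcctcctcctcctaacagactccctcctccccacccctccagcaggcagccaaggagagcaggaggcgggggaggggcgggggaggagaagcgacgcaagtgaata
*Axin2* (chr11:108920099-108920348, plus strand): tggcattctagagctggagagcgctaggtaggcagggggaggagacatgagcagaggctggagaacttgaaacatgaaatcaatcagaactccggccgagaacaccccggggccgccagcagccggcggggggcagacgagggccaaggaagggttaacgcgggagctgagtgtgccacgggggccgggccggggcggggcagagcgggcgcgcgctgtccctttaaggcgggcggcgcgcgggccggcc

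A match lay 203 bases before the *Wnt9b* start and another lay 161 bases before the *Lef1* start, while the *Wnt4* and *Axin2* windows of 250 bases held none. Promoter sequences were at hand for 7 of the 10 genes, and 2 of these 7 had a match at their first start. Of all 32851 starts, 48.6% had one in a window of this length, so a match is common. The longer CTTTGA, with TCAAAG, occurred in 13.8% of starts and at the first start of 0 of the 7 genes. A match is a run of letters and not a measured binding site.

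The ureteric ligands came first among the comparisons. *Wnt9b* (chromosome 11, 103727364 to 103749821, minus strand; all positions are GRCm38), which signals from the ureteric epithelium to nephron progenitors, measured 4.80, 5.28 and 5.02 FPKM in Ntn1SPKO kidneys. It measured 3.68, 5.12 and 1.64 FPKM in Foxd1GC control replicates 1 to 3, and 4.84, 4.49, 3.55 and 4.63 FPKM in wild-type kidneys. Control replicate 3 was far below every other library, and the groups overlapped in each comparison. The log2 difference of Ntn1SPKO from Foxd1GC control was 0.66 ± 0.39 (limma SE, adjusted p=0.477). It was 0.21 without control replicate 3 and 1.00 without control replicate 2.

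*Wnt7b* (chromosome 15, 85535437 to 85582473, minus strand), a ligand of the ureteric stalk needed for the medulla, measured 2.85, 2.75 and 3.44 FPKM in Ntn1SPKO kidneys. Control kidneys had 3.18, 3.72 and 2.01 FPKM, and wild-type kidneys 3.13, 3.01, 2.32 and 2.72 FPKM. For this gene the groups overlapped in each comparison. *Wnt6* (chromosome 1, 74771892 to 74785322, plus strand), expressed in the ureteric epithelium, measured 2.86, 2.66 and 2.43 FPKM in Ntn1SPKO, 3.50, 3.81 and 1.94 FPKM in control and 2.74, 3.06, 2.83 and 3.18 FPKM in wild-type kidneys. Both control replicates other than replicate 3 exceeded all Ntn1SPKO and wild-type libraries. The log2 difference of Ntn1SPKO from Foxd1GC control was 0.06 ± 0.24 for *Wnt7b* and −0.16 ± 0.26 for *Wnt6* (limma SE, adjusted p=0.923 and 0.787). Without control replicate 3, *Wnt6* differed by −0.45 (limma, adjusted p=0.673) and *Wnt7b* by −0.19, so the sign of *Wnt7b* turned.

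*Wnt4* (chromosome 4, 137277489 to 137299726, plus strand), made by nephron progenitors as they commit to epithelium, gave the largest difference between Ntn1SPKO and Foxd1GC control among the 10 genes. It measured 18.9, 18.3 and 18.4 FPKM in Ntn1SPKO kidneys. Control replicates 1 to 3 had 8.33, 17.5 and 2.50 FPKM, and wild-type replicates 1 to 4 had 16.0, 16.9, 12.2 and 12.9 FPKM. Each Ntn1SPKO library lay above each library of the other groups, and the control libraries were widely scattered. The means were 18.6 ± 0.329 (SD, n=3), 9.45 ± 7.57 (SD, n=3) and 14.5 ± 2.27 FPKM (SD, n=4).

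Against Foxd1GC control, whose libraries ran from 2.50 to 17.5 FPKM, the *Wnt4* difference was 1.36 ± 0.64 on the log2 scale (limma, adjusted p=0.449). It was 0.62 without control replicate 3 and 2.00 without control replicate 2. The exact permutation test, two-sided, gave p=0.1, the smallest that 3 libraries against 3 allow. Against wild type the difference was 0.37 ± 0.12 (limma, adjusted p=0.712; exact permutation p=0.0571). The difference of Foxd1GC control from wild type was −0.99 ± 0.56 (adjusted p=0.667 with limma), and −0.25 without control replicate 3.

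*Wnt5a* (chromosome 14, 28504750 to 28527448, plus strand), a ligand of mesenchyme and stroma that signals mainly without beta-catenin, separated both Foxd1GC genotypes from wild type. It measured 13.8, 11.1, 10.3 and 11.8 FPKM in wild-type, 15.8, 15.9 and 18.0 FPKM in control and 14.8, 15.1 and 16.8 FPKM in Ntn1SPKO kidneys. All 6 libraries with Foxd1GC were above all 4 wild-type libraries, and the control and Ntn1SPKO libraries overlapped. The log2 difference from wild type was 0.50 ± 0.11 for Foxd1GC control (limma, adjusted p=0.665; exact permutation p=0.0571) and 0.41 ± 0.11 for Ntn1SPKO (limma, adjusted p=0.459; exact permutation p=0.0571). Both comparisons use the same 4 wild-type libraries. Neither passed the adjusted limit of 0.1 over all genes tested. Between Ntn1SPKO and Foxd1GC control the difference was −0.09 ± 0.09 (limma, adjusted p=0.640). Without both libraries that stand apart, the difference of control from wild type was 0.38 (limma, adjusted p=0.641).

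*Wnt2b* (chromosome 3, 104945272 to 104961921, minus strand), a canonical ligand reported in stroma, was near the lower limit of what was tested. It measured 0.308, 0.357, 0.517 and 0.447 FPKM in wild-type, 0.759, 0.438 and 0.963 FPKM in control and 0.641, 0.341 and 0.318 FPKM in Ntn1SPKO kidneys. The highest values were in control replicates 3 and 1, and every pair of groups overlapped. The difference of Ntn1SPKO from Foxd1GC control was −0.62 ± 0.43 on the log2 scale (limma, adjusted p=0.523). Its mean over Ntn1SPKO and wild-type libraries was under 0.5 FPKM, so that comparison was not tested.

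Of the 10 genes, *Rspo1* varied least, with an SD of 0.15 on the log2 scale. *Rspo1* (chromosome 4, 124986430 to 125009099, plus strand), a secreted enhancer of Wnt signalling in nephron progenitors, measured 33.6, 35.4 and 33.8 FPKM in Ntn1SPKO, 33.3, 35.6 and 31.7 FPKM in control and 25.1, 29.9, 31.8 and 34.2 FPKM in wild-type kidneys. Wild-type replicate 1 was lowest, and the groups overlapped. Ntn1SPKO differed from Foxd1GC control by 0.03 ± 0.07 on the log2 scale (limma, adjusted p=0.837), the smallest standard error of the 10 genes in that comparison. *Rspo1* and *Wnt4* are also known from the developing gonad. The 12 gonad and adrenal markers summed to 2.90 to 4.84 FPKM per library, of which 1.84 to 3.02 was *Mc2r*, and the gonadal factors *Nr5a1* and *Gata4* reached at most 0.194 and 0.416 FPKM.

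*Rspo3* (chromosome 10, 29452416 to 29535867, minus strand), the R-spondin made in both stroma and progenitors, measured 16.4, 17.8 and 15.9 FPKM in Ntn1SPKO kidneys. Control kidneys had 18.9, 13.6 and 24.6 FPKM, and wild-type kidneys 13.2, 12.7, 15.4 and 15.7 FPKM. The 3 Ntn1SPKO libraries lay just above the wild-type range, inside that of the controls. The log2 difference of Ntn1SPKO was 0.23 ± 0.10 from wild type (limma, adjusted p=0.845) and −0.15 ± 0.21 from Foxd1GC control (limma, adjusted p=0.741). Without control replicate 3 the latter was 0.06.

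*Lef1* (chromosome 3, 131110471 to 131224356, plus strand), a nuclear partner of beta-catenin and itself a target of the pathway, measured 20.4, 23.8, 14.8 and 12.5 FPKM in wild-type kidneys. Control replicates 1 to 3 had 7.68, 14.2 and 2.88 FPKM, and Ntn1SPKO kidneys had 13.1, 11.6 and 12.7 FPKM. Control replicates 1 and 3 were below all other libraries, and Ntn1SPKO libraries lay below wild-type replicates 1 to 3, overlapping replicate 4. The log2 difference of Foxd1GC control from wild type was −1.33 ± 0.49 (adjusted p=0.665 with limma; two-sided exact permutation test p=0.0571). It was −0.73 without control replicate 3. For Ntn1SPKO it was −0.47 ± 0.21 from wild type (limma, adjusted p=0.882) and 0.86 ± 0.53 from Foxd1GC control (limma, adjusted p=0.487). The latter was 0.25 without control replicate 3 and 1.38 without control replicate 2.

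*Axin2* (chromosome 11, 108920349 to 108950783, plus strand), a scaffold of the beta-catenin destruction complex and a widely used target gene of the pathway, measured 20.1, 18.3 and 17.2 FPKM in Ntn1SPKO, 17.7, 17.7 and 11.9 FPKM in control and 18.0, 18.3, 16.7 and 17.7 FPKM in wild-type kidneys. Apart from control replicate 3, all libraries lay between 16.7 and 20.1 FPKM. The log2 difference of Ntn1SPKO was 0.25 ± 0.17 from Foxd1GC control and 0.07 ± 0.07 from wild type (limma, adjusted p=0.511 and 0.947). Without control replicate 3 the former was 0.06.

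Counted over the 10 genes, none passed the limma test of Ntn1SPKO against Foxd1GC control. At an unadjusted p under 0.05 the count was 0 of 10, beside 10.7% of all 14550 genes tested. Only the *Wnt4* groups did not overlap, beside 19.9% of all genes (11% higher). The median log2 difference was 0.04 for these genes and 0.01 for all genes, with 6 of 10 higher beside 51.2% of all genes. Without control replicate 3, 1 gene (*Wnt6*) had an unadjusted p under 0.05, beside 7.23% of all genes in that fit. Without control replicate 2 there were 4 (*Wnt4*, *Lef1*, *Wnt9b* and *Rspo3*), and the share of all genes was then 23.5%.

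Against wild-type kidneys, 3 of the 9 genes tested in Ntn1SPKO had an unadjusted limma p under 0.05, beside 5.76% of 14432 genes (2.45% higher). They were *Wnt5a*, *Wnt4* and *Rspo3*, all higher, and the same 3 were the ones whose groups did not overlap (7.1% of all genes, 3.56% higher). Their adjusted p-values were 0.459 to 0.845, so no gene passed over the whole table. The count was 5 without wild-type replicate 4 (6.17% of all genes) and 1 without Ntn1SPKO replicate 1 (4.69%). For Foxd1GC control against wild type, 2 of 10 (*Wnt5a* and *Lef1*) had an unadjusted p under 0.05, beside 7.06% of 14594 genes, and 1 (*Wnt5a*) did not overlap, beside 8.09% (4.04% higher). That count was 6 without control replicate 2, with 15.6% of all genes, and 1 without control replicate 3, with 3.7%. In the whole table, 8, 7 and 1 genes were called in the 3 comparisons (limma adjusted p under 0.1 together with a 2-fold difference or more; 0.055%, 0.0485% and 0.00685% of genes), none of them among the 10.

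**Figure D3:**
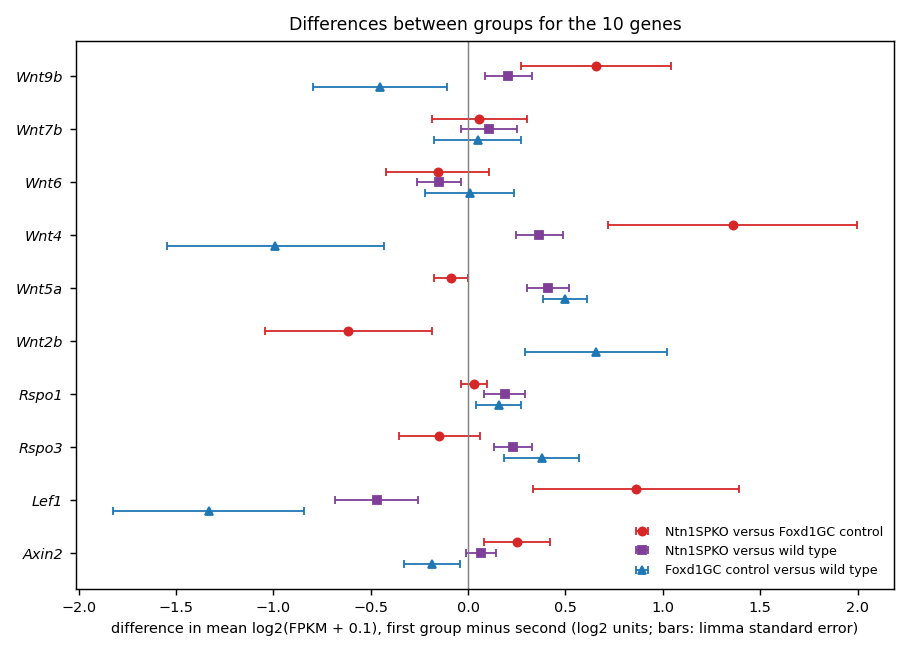
Difference between group means of log2(FPKM + 0.1) for each gene (x axis, log2 units; bars, limma SE) in the 3 comparisons, marked by colour and shape. *Wnt5a* is at 0.50 and 0.41 against wild type and at −0.09 between the Foxd1GC genotypes; *Wnt2b* has no point for Ntn1SPKO against wild type.

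Because Y-linked transcripts were in every Ntn1SPKO library but in only 1 control, the values were also set beside that control. In Foxd1GC control replicate 2, *Wnt4* was 17.5 FPKM against 18.3 to 18.9 in Ntn1SPKO, *Lef1* was 14.2 against 11.6 to 13.1, and *Wnt9b* was 5.12 against 4.80 to 5.28. With the presence of Y-linked transcripts as a term in the limma fit, the log2 difference of Ntn1SPKO from Foxd1GC control was 0.08 for *Wnt4*, −0.18 for *Lef1* and −0.03 for *Wnt9b*. That fit rests on the single control, so the scatter of the controls and this term cannot be told apart.

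Levels were then taken relative to markers of the compartment that makes each gene, as log2(FPKM + 0.1) minus the median of the marker list in the same library. *Wnt4* relative to 9 committing nephron markers was 0.95, 1.08 and 1.01 in Ntn1SPKO and 0.13, 0.21, −0.12 and 0.17 in wild-type libraries. Control replicates 1 to 3 had 0.00, 0.25 and −1.22. Ntn1SPKO libraries were above all others. The difference was 0.92 from wild type (exact permutation test, two-sided, p=0.0286, the smallest possible) and 1.34 from Foxd1GC control (exact permutation p=0.1, the smallest possible), or 0.89 without control replicate 3.

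Against wild type, such a separation holds for most genes, as the marker list itself lay lower in Ntn1SPKO kidneys. *Wnt4* alone was 0.37 higher there. Of all 14432 genes, 66.4% were higher without overlap in Ntn1SPKO than in wild type when taken relative to this list, and 2.38% were so against Foxd1GC control. In Ntn1SPKO libraries the list median was 3.13 to 3.30 on the log2 scale, below the 3.53 to 3.88 of wild-type libraries. Of the 9 markers, *Dll1*, *Cdh6* and *Lhx1* were lower (log2 differences −0.79, −0.40 and −0.54) and *Bmper* was higher (0.25) without overlap, with limma adjusted p-values of 0.259 to 0.516. Of all genes, 3.54% were lower and 3.56% higher without overlap in this comparison. The Foxd1GC control means were as low or lower, at 4.02 FPKM for *Dll1*, 8.97 for *Cdh6* and 11.4 for *Lhx1*. Those of Ntn1SPKO were 4.11, 9.03 and 15.7 FPKM. Control replicate 2 was above every Ntn1SPKO library for *Dll1* (5.74 against 3.37 to 5.13 FPKM) and *Lhx1* (22.8 against 13.2 to 17.4 FPKM). Control replicate 3, which stood apart, had 2.84 FPKM of *Dll1* and 2.44 of *Lhx1*. In control against wild type 8 of the 9 markers were lower, with a median log2 difference of −0.75. Of these, 5 had an unadjusted limma p under 0.05, beside 3.23% of all genes. The 1 marker that was higher was under that limit too, beside 3.84% of all genes. Control replicate 3 was lowest of the 10 libraries for 6 of the 9 markers.

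Relative to 10 ureteric epithelium markers, *Wnt6* and *Wnt7b* set the Foxd1GC control libraries apart. *Wnt6* was at −3.17, −3.31 and −2.90 in control, at −3.61, −3.73 and −4.01 in Ntn1SPKO and at −3.80, −3.57, −3.71 and −3.45 in wild-type libraries. *Wnt7b* was at −3.31, −3.34 and −2.86, at −3.62, −3.68 and −3.53, and at −3.61, −3.59, −3.98 and −3.67 in the same order. For both genes all 3 control libraries were above the other 7, including replicates 1 and 2.

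The difference of control from wild type was 0.50 for *Wnt6* and 0.54 for *Wnt7b* (exact permutation p=0.0286 for each, the smallest possible; 7.25% of all genes were higher without overlap on this scale). Without control replicate 3 they were 0.39 for both. Ntn1SPKO was below control by −0.65 and −0.44 (exact permutation p=0.1 for each; 12.6% of all genes were lower without overlap). *Wnt9b* on this scale overlapped in all comparisons, with differences of 0.16, 0.20 and 0.04.

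Of the stromal genes, *Wnt5a* relative to 10 renal stroma markers was 0.54 higher in Ntn1SPKO than in wild type without overlap (exact permutation p=0.0571; 3.22% of all genes). Foxd1GC control replicates 1 to 3 were at −2.35, −1.36 and −2.19. They overlapped wild type at −2.47 to −1.85 and Ntn1SPKO at −1.69 to −1.49. On this scale *Wnt5a* thus did not separate control from wild type, unlike its FPKM level. *Wnt2b*, *Rspo3* and, relative to nephron progenitor markers, *Rspo1* overlapped in every comparison. These were 24 comparisons of 8 genes, with p-values not adjusted over them.

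**Figure D4:**
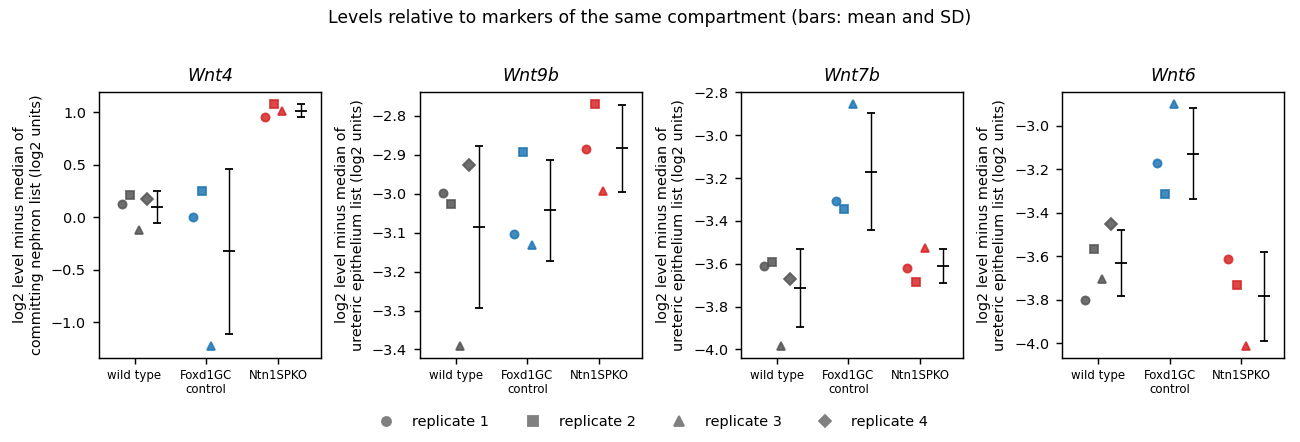
*Wnt4* minus the median of committing nephron markers and *Wnt9b*, *Wnt7b* and *Wnt6* minus the median of ureteric markers (y axes, log2 units, not from 0) in every library by genotype, with mean and SD bars. *Wnt4* is at 0.95 to 1.08 in Ntn1SPKO libraries, and the control libraries are highest for *Wnt7b* and *Wnt6*.

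For the 3 most variable genes, the genes with the most similar pattern over the 10 libraries were sought among all genes, by the root mean square difference of centred log2 values. For *Wnt4* they were *Klhl14* (0.22), *Tfcp2l1* (0.23) and *Irx3* (0.24). For *Lef1* they included *Fam167a* (0.18) and *Dcdc2a* (0.20), and for *Wnt9b* they were *Hs3st3a1* (0.06), *Tbx2* (0.09) and *Rassf10* (0.09). Points shared library, depth and cell composition, and these values describe likeness only.

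The rest of the pathway was read from 82 other listed genes. In Ntn1SPKO against Foxd1GC control 68 were tested, and 44 were higher and 24 lower, a median log2 difference of 0.08 beside 0.01 for all genes. At an unadjusted limma p under 0.05 there were 3 higher and 3 lower, beside 5.49% and 5.17% of all genes, and 0 after adjustment. Groups did not overlap for 7 higher and 2 lower genes, beside 11% and 8.91% of all genes.

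Against wild type 67 were tested, and 43 were higher (51.1% of all genes were) and 24 lower. At the unadjusted limit there was 1 higher and 8 lower, beside 2.45% and 3.31% of all genes, and 0 after adjustment. Groups did not overlap for 3 higher and 9 lower genes, beside 3.56% and 3.54% of all genes. Of the 13 secreted antagonists 11 were tested, and 5 were higher and 6 lower, with a median of −0.20. At the unadjusted limit 4 were lower and 0 higher, and *Sost*, named after its values were seen, was higher without overlap (log2 difference 0.39, limma adjusted p=0.916). Foxd1GC control against wild type gave 33 higher of 69 (48.4% of all genes), with 2 higher and 2 lower at the unadjusted limit (3.84% and 3.23% of all genes) and 0 after adjustment. Without control replicate 3 the counts at that limit were 3 higher and 1 lower for Ntn1SPKO against control and 0 and 0 for control against wild type. Without control replicate 2 they were 15 and 12 (2 after adjustment), and 9 and 11, and 23.5% and 15.6% of all genes were then under the limit. With the Y-linked term, Ntn1SPKO against wild type gave 21 higher and 4 lower, with 20 after adjustment, so the balance turned. That fit put 22.5% of all genes under the adjusted limit. With no intensity trend the counts were 4 higher and 8 lower, with 2 (*Wnt2* and *Wif1*) after adjustment.

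*Notum*, a secreted enzyme that removes the lipid of Wnt proteins and is induced by the pathway, was at 3.82, 6.42 and 4.62 FPKM in Ntn1SPKO kidneys. It was at 1.74, 3.05 and 0.549 FPKM in control and at 2.92, 3.07, 2.58 and 1.71 FPKM in wild-type kidneys. Every Ntn1SPKO library was above every other library. The log2 difference was 1.67 ± 0.57 from Foxd1GC control (limma, adjusted p=0.447; 1.04 without control replicate 3) and 0.92 ± 0.24 from wild type (limma, adjusted p=0.465; exact permutation p=0.0286, the smallest possible).

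*Wif1*, a secreted inhibitor that binds Wnt proteins, was at 0.982, 0.610 and 0.734 FPKM in Ntn1SPKO, at 2.12, 1.18 and 1.94 FPKM in control and at 2.16, 2.01, 2.03 and 2.45 FPKM in wild-type kidneys. It was lower in Ntn1SPKO than in any other library. The log2 difference was −1.06 ± 0.30 from Foxd1GC control (limma, adjusted p=0.447) and −1.39 ± 0.19 from wild type (limma, adjusted p=0.110; exact permutation p=0.0286, the smallest possible). The latter was the lowest adjusted p among the pathway genes.

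*Wnt2*, a canonical ligand, was at 0.980, 1.08 and 0.786 FPKM in Ntn1SPKO, at 3.06, 1.27 and 5.61 FPKM in control and at 2.04, 1.85, 2.18 and 1.92 FPKM in wild-type kidneys. Ntn1SPKO libraries were again lowest, and control replicate 3 was highest. The log2 difference was −1.49 ± 0.51 from Foxd1GC control (limma, adjusted p=0.447) and −1.01 ± 0.16 from wild type (limma, adjusted p=0.140; exact permutation p=0.0286, the smallest possible). *Wif1* and *Wnt2* were named because their groups did not overlap, so the permutation p adds no separate support. In Foxd1GC control replicate 2, the only control with Y-linked transcripts, *Wif1* was 1.18, *Wnt2* 1.27 and *Notum* 3.05 FPKM. Over the alternative settings, differences from Foxd1GC control ran from −1.31 to −0.58 (*Wif1*), −2.03 to −0.40 (*Wnt2*) and 0.65 to 2.18 (*Notum*).

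The other pathway genes that were lower in Ntn1SPKO than in wild type without overlap, at an unadjusted limma p under 0.05, were 3 antagonists and 3 further genes. The antagonists were *Sfrp4* (log2 difference −1.41), *Dkk2* (−0.38) and *Dkk1* (−0.21). The others were the R-spondin receptor *Lgr5* (−0.51), the cell cycle gene *Ccnd1* (−0.23) and the planar polarity gene *Prickle1* (−0.30). Their adjusted p-values were 0.442 to 0.813. *Lgr5* was also lower in Foxd1GC control than in wild type, by −0.67 (limma, adjusted p=0.665). *Dkk1* and *Ccnd1* were lower there by −0.94 and −0.44, with overlap (limma, adjusted p=0.665 for both). Both were higher in Ntn1SPKO than in Foxd1GC control, by 0.74 and 0.20. *Sfrp4*, *Dkk2* and *Prickle1* differed by −0.26, 0.62 and 0.04 between control and wild type. Against Foxd1GC control, *Celsr1*, another polarity gene, differed by 0.94 and *Ctnnb1*, which encodes beta-catenin, by 0.13, each with a limma adjusted p of 0.447.

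**Figure D5:**
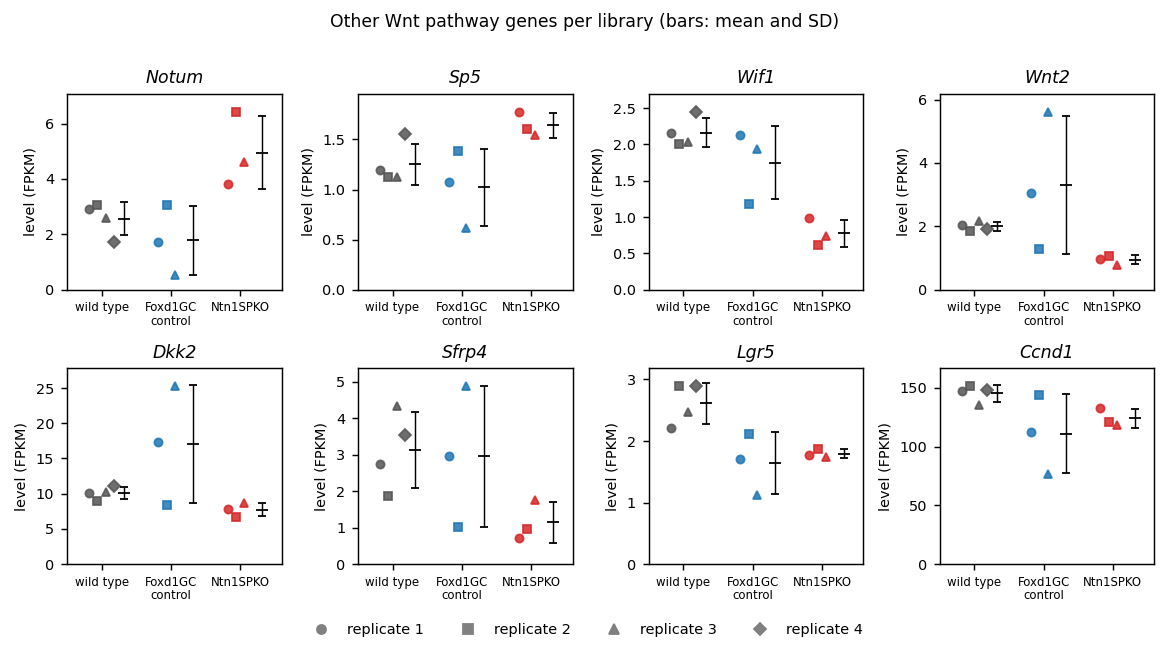
Levels of 8 other Wnt pathway genes (FPKM, axes from 0) in every library by genotype, with mean and SD bars. *Notum* is highest and *Wif1* and *Wnt2* are lowest in the 3 Ntn1SPKO libraries.

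*Wnt11*, made at ureteric tips, was at 19.1 to 23.3 FPKM in all libraries. Log2 differences of Ntn1SPKO from Foxd1GC control were 0.05 for *Wnt11*, 0.02 for the R-spondin receptor *Lgr4*, 0.16 for *Lgr5*, 0.41 for *Znrf3* and 0.33 for *Rnf43* (limma, adjusted p=0.461 to 0.939). They were 0.52 for *Tcf7*, 0.02 for *Tcf7l1* and −0.01 for *Tcf7l2*, the other TCF factors, and 0.19 for the feedback inhibitor *Nkd1* (limma, adjusted p=0.502 to 0.955). The 10 Frizzled receptors differed by −0.57 to 0.85. For each receptor the groups overlapped. *Sp5*, a direct target of beta-catenin, was at 1.54 to 1.78 FPKM in Ntn1SPKO and at 0.615 to 1.38 FPKM in control libraries, a log2 difference of 0.69 ± 0.31 (limma, adjusted p=0.447), and overlapped with wild type at 1.12 to 1.56 FPKM.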

How the data were processed

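Total RNA of dissected E13.5 kidneys was sequenced by the authors, who converted base calls with bcl2fastq 2.17.1.14 (per the submitters' processing notes), quantified reads with Salmon against coding sequences of Ensembl GRCm38 and imported them to genes. The deposited values are FPKM and not counts, so limma 3.58.1 (R 4.3.3) took the place of a count test. Median-of-ratios factors were 1 in all 10 libraries, so values were used as deposited. Limma (eBayes with intensity trend) was run on log2(FPKM + 0.1) wherever the mean of the 2 fitted groups reached 0.5 FPKM, with Benjamini-Hochberg adjustment over all genes tested. Fold changes are on this scale and understate those of low genes. Single values were tested with exact permutation tests, two-sided. Depth was estimated from the steps between low values and is rough. Whether replicates came from separate embryos is not given in the labels, so p-values measure the spread between these samples. Genes and lists were chosen with earlier results of these data known. All 10 genes were named; other pathway genes were named where groups did not overlap at an unadjusted p under 0.05, or as core pathway members. The 3 genes most like each of the 3 most variable genes were named too, except 1 that is not reported here. Alternatives were other pseudocounts, filters and scalings, no trend, 1 joint fit, a replicate block, a term for Y-linked transcripts and leaving out each library. Leaving out both libraries that stand apart was chosen after seeing the data. Upstream sequences came from RefSeq (GRCm38.p6) and coordinates from GENCODE M21. The steps were tested on simulated data.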

Additional observations from a re-analysis of the deposited data

Results flagged for a closer look

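In 2 of 32 genes examined, 1 wild-type library lay farther from the other 3 than Dixon's limit allows, and chance alone flags about 1 group in 20. *Sp5* was 1.56 FPKM in wild-type replicate 4 and 1.12 to 1.19 FPKM in the others. *Znrf3* was 8.82 FPKM in wild-type replicate 3, which also stood apart over all genes, and 11.96 to 12.4 FPKM in the others. Groups of 3 were not examined this way.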

How the results depend on the processing

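Over the 10 genes and the named pathway genes, 708 of the recomputed fold changes kept their sign and their side of the adjusted limit, 21 changed sign and 10 newly passed it. Genes called for Ntn1SPKO against Foxd1GC control numbered 8, and 21 with no filter, 0 in one fit of all libraries, 4 with a term for Y-linked transcripts, and 3 to 78 when single libraries were left out. Against wild type they numbered 7, and 2 with a pseudocount of 1, 18 with no filter, 12 with no trend, 0 in one fit, 187 with the Y-linked term, and 1 to 20 with single libraries left out. For Foxd1GC control against wild type they numbered 1, and 2 with a pseudocount of 1 or 0.01, 9 with no filter, 4 with no trend, 0 in one fit, 11 without both libraries that stand apart, and 3 to 20 with single libraries left out.

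Of the 10 genes, those with an unadjusted p under 0.05 numbered 1 in one fit for each comparison of Ntn1SPKO (0 and 3 as reported), and 1 without both libraries that stand apart for Foxd1GC control against wild type (2 as reported). With single libraries left out they numbered 0 to 4, 1 to 5 and 1 to 6. Non-overlapping results of stromal genes on the relative scale, counted over all genes and comparisons, numbered 1. They numbered 2 with the mean over the list and 1 to 3 with single libraries left out.

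With the Y-linked term, Ntn1SPKO against Foxd1GC control changed sign for *Wnt7b* (−0.30), *Wnt9b* (−0.026), *Rspo1* (−0.056), *Rspo3* (0.30) and *Lef1* (−0.18). Against wild type that term rests on wild-type replicate 3 alone, and *Wnt9b* (0.49), *Wnt4* (0.60) and *Wnt5a* (0.59) passed with limma adjusted p=0.0361, 0.0474 and 0.0411, as did 22.5% of all genes. *Wif1*, *Wnt2*, *Sfrp4* and *Dkk1* passed as well in that fit (limma adjusted p=0.0344, 0.0269, 0.0622 and 0.0513). For Foxd1GC control against wild type, *Wnt6* was −0.064 under quantile scaling and −0.0099 with the Y-linked term, and *Wnt7b* −0.023 under quantile scaling. Leaving out single libraries gave ranges across 0 for Ntn1SPKO against Foxd1GC control of −0.45 to 0.019 (*Wnt6*), −0.19 to 0.24 (*Wnt7b*), −0.0078 to 0.075 (*Rspo1*) and −0.37 to 0.057 (*Rspo3*), and for Foxd1GC control against wild type of −0.17 to 0.30 (*Wnt6*), −0.13 to 0.30 (*Wnt7b*) and −0.28 to 0.0018 (*Axin2*). The cause was not tested.

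Replicate numbers did not pair the samples, as deviations of same-numbered libraries correlated at −0.0471 to 0.0755. With the number as a block, 4 genes were called for Ntn1SPKO against Foxd1GC control. On the relative scale, differences between same-numbered libraries all had the same sign in 3 comparisons of a stromal gene. That count is not one of overlap between groups. Low levels limit *Wnt2b* most, at about 10 to 29 fragments per library.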
